A study of Mus musculus with 6 samples.

Results

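Glutathione transferases and a glutathione peroxidase were represented by 9 genes in the deposited RNA-seq table of the injured ventrotemporal (VT) retina, namely all whose symbol begins with Gst, Mgst or Gpx. They are the transferase genes Gsta1, Gsta3 and Gsta4 of the alpha class, Gstm1, Gstm2 and Gstm4 of the mu class, Gstt1 of the theta class, the microsomal transferase gene Mgst1, and the peroxidase gene Gpx8, or 9 of the 701 genes in the table. The authors selected the 701 genes on these same samples, by a p-value below 0.05 for the difference between genotypes and by at least 10 reads in 2 samples of either genotype. The 9 genes were thus chosen by the contrast that is described here, and their differences between genotypes are given as descriptions, without a test. Another 25 of the 34 listed mouse genes of these families were not in the table and were not analysed here.

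RNA came from the peripheral VT retina of C57BL/6 mice 24 hours after optic nerve crush (ONC) at 8 weeks of age (postnatal day 56). WT mice and Slc6a4-/- mice, which lack the serotonin transporter gene throughout the body, were compared. Every sample was injured, so that no value describes an uncrushed retina. There were 3 samples per genotype, each a pool of 3 retinae, and the spread between samples is therefore a spread between pools.

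Glutathione transferases couple the thiol tripeptide glutathione to reactive electrophiles, such as the aldehydes that form when lipids are oxidized, and the products are exported and trimmed to mercapturic acids. Alpha, mu and theta enzymes are mostly cytosolic, whereas MGST1 is a membrane protein of the endoplasmic reticulum and the outer mitochondrial membrane that also reduces lipid hydroperoxides. GPX8 belongs to the glutathione peroxidase family by sequence but sits in the endoplasmic reticulum membrane and takes part in oxidative protein folding. Several of these genes are classical targets of the transcription factor NRF2 (gene Nfe2l2), which binds antioxidant response elements.

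The genes of a class resemble each other, and the coding sequences of the alpha and mu genes are shown first because the assignment of reads depends on where they differ. The first 90 coding bases of the 3 mu genes are given 5′ to 3′ from GENCODE M21 transcripts, with the 20 positions that are not the same in all 3 genes in capitals.
Gstm1: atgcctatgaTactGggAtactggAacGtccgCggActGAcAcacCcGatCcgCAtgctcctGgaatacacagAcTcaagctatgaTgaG
Gstm2: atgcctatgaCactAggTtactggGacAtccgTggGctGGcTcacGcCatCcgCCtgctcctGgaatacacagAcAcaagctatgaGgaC
Gstm4: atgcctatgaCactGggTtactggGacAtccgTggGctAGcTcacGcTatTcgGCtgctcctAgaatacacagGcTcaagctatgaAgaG

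The alpha genes are less alike over the same stretch, where 28 of 90 positions are not shared by all 3 genes (capitals).
Gsta1: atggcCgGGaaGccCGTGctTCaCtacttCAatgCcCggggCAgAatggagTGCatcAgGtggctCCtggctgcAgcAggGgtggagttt
Gsta3: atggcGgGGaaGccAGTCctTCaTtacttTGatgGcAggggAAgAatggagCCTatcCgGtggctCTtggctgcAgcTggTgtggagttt
Gsta4: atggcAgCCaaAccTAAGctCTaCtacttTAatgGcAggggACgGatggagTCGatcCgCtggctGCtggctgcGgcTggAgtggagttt

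Over whole coding sequences, Gstm1 and Gstm2 were identical at 85.9% of bases, Gstm2 and Gstm4 at 82.6%, and Gstm1 and Gstm4 at 80.6%. Gsta1 and Gsta3 were identical at 74.9%, and Gsta4 matched both at lower values, 67.7% with Gsta1 and 67.1% with Gsta3. These differences leave room for reads to be told apart between members. Of all 75-base stretches in the coding transcripts, the length of 1 read, none was shared with another gene for Gsta3, Gsta4, Gstm4, Gstt1, Mgst1 or Gpx8, 2.77% were shared for Gstm2, and 12.3% for Gstm1, mainly with the pseudogene Gstm2-ps1 and with Gstm3. Gsta1 was the exception, with 86.3% of its stretches found in another gene. Its coding sequence matched that of Gm3776 at 99.7% and that of Gsta2 at 97.6% of bases, so that reads listed under Gsta1 are uncertain as to which of these 3 genes they came from.

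On GRCm38, the 3 mu genes lie side by side on the minus strand of chromosome 3, with Gstm2 at 107981702 to 107986453, Gstm1 at 108012255 to 108017973 and Gstm4 at 108040408 to 108044894. They are 3 of 7 protein-coding mu genes within 149 kb. Gsta4 (78182774 to 78209349) and Gsta1 (78230656 to 78242684) are neighbours on the plus strand of chromosome 9, while Gsta3 lies apart from them on chromosome 1 (21240589 to 21265661, plus strand). Gstt1 lies on chromosome 10 (75783813 to 75798584, minus strand), Mgst1 on chromosome 6 (138140316 to 138156755, plus strand) and Gpx8 on chromosome 13 (113042753 to 113046410, minus strand). The whole of Gpx8 lies within Cdc20b, which runs on the opposite strand, and part of Gsta3 lies opposite the antisense gene Gm28836. The library kit was stranded, but whether the counting used strand is not given in the sources used here.

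An antioxidant response element core, TGACNNNGC on either strand, was looked for in the RefSeq promoters (GRCm38.p6) from 250 bases before to 50 bases after each start site. The 8 members other than Gsta4 had 11 promoters in the collection, and 2 promoters held the core, compared with 12.4% of all 32851 promoters. The matches are shown for the 2 genes with their 30-base surroundings on the gene's strand, with the core in capitals.
Gsta3: aactcaggcaTGACATTGCatttttcttct
Mgst1: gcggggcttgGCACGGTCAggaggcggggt
The Gsta3 stretch is chr1:21240454-21240483, where the core begins 121 bases upstream of the start site. In Mgst1 the stretch is chr6:138140461-138140490, the core is on the opposite strand, and its leftmost base lies 56 bases upstream of the start site. A match of letters is a description and does not show that a factor binds there.

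The targeted gene was read as the genotype labels state. Slc6a4 had 1516, 1397 and 1548 reads in the 3 WT pools and 0, 0 and 3 reads in the Slc6a4-/- pools, at least 560-fold lower when the Slc6a4-/- pools are set at 3 reads each. Library sizes recovered from the deposited values ran from 75.3 M to 94.0 M reads, and the table's own sums ran from 1051620 to 1427001. Counts below are scaled counts, the reads of a gene divided by the relative size of its library. None of the 9 genes lies on chromosome 11, which carries Slc6a4.

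All 9 genes had a higher mean in Slc6a4-/- than in WT retina, and in 8 of them the lowest Slc6a4-/- pool lay above the highest WT pool. Non-overlap in this direction was found in 35.1% of the 701 genes, a share that the authors' selection of the table itself sets. Under limma, with an adjusted p below 0.05 and over 1.5-fold, 1 of 9 genes (Gsta1) was called higher, compared with 0.713% of the table (5 genes). Nothing is read from either count, since the table was chosen on this contrast. The call of Gsta1 was lost with a minimum mean of 10 scaled counts, which removes the gene, and without the second or the third WT pool or the second or the third Slc6a4-/- pool. In each of the 7 genes with reads in WT and no overlap, the gap between the lowest Slc6a4-/- and the highest WT pool, 1.99% to 17.4%, was below its counting error, so that depth cannot settle the non-overlap. The median log2 difference of the 9 genes was 0.75 (0.64 without Gsta1, and 0.75 with Gsta1 at its lower bound), and over the 397 genes of the table with a higher mean in Slc6a4-/- it was 0.64. In bulk tissue, more cells of a type and more RNA per cell cannot be told apart.

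**Figure D1:**
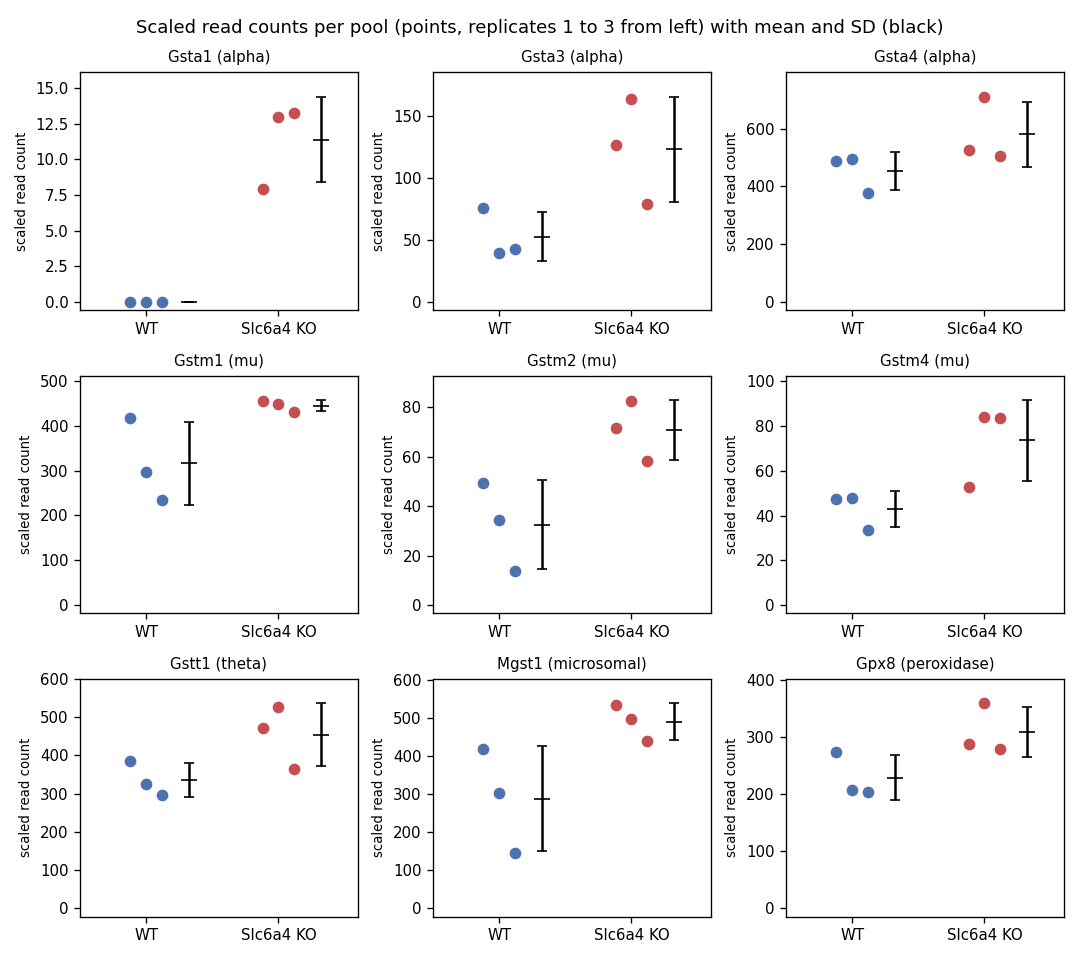
Scaled read counts (y axis, each panel with its own scale) of the 9 genes in the 3 WT pools (blue) and 3 Slc6a4-/- pools (red), with mean and SD in black. The red points lie above all blue points in every panel except Gstt1, where the third Slc6a4-/- pool (364) lies below the first WT pool (385).

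Alpha-class enzymes are the main transferases for the toxic aldehydes of lipid peroxidation, and GSTA4 has a marked preference for 4-hydroxynonenal. Gsta4 had the most reads of the alpha genes, with scaled counts of 488, 494 and 377 in the WT pools and 527, 709 and 505 in the Slc6a4-/- pools. Its mean was 452.9 ± 65.6 in WT and 580.4 ± 112 in Slc6a4-/- (SD, n = 3), a ratio of 1.28. The log2 difference of 0.35 (SE 0.18) was the smallest of the 9 genes, and it was 0.20 without the second Slc6a4-/- pool and 0.22 without the third WT pool. The lowest Slc6a4-/- pool lay only 2.27% above the highest WT pool. With median-of-ratios scaling the Gsta4 groups overlapped.

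Gsta3 encodes an alpha enzyme that acts on steroid isomers and on the epoxide of aflatoxin. It had scaled counts of 75.9, 39.6 and 43.0 in the WT pools and 127, 164 and 79.6 in the Slc6a4-/- pools. Means were 52.8 ± 20.1 and 123.4 ± 42.3 (SD, n = 3), a ratio of 2.34 and a log2 difference of 1.21 (SE 0.37). The third Slc6a4-/- pool stood close to the first WT pool, 4.77% above it, whereas the other Slc6a4-/- pools were well above all WT pools.

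Gsta1 was the only member without a read in WT. It had 0, 0 and 0 reads in the WT pools and 9, 14 and 13 reads in the Slc6a4-/- pools, or 11.4 ± 2.99 scaled counts (SD, n = 3). With 3 reads allowed in each WT pool, the Slc6a4-/- mean was at least 3.57-fold higher. Gsta1 passed the authors' read minimum only through the Slc6a4-/- pools, so that a gene absent from WT had to differ to enter the table. Because 86.3% of its 75-base stretches occur in another gene, it is uncertain which of Gsta1, Gm3776 and Gsta2 its reads came from.

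Mu-class enzymes act on epoxides and quinones, among them oxidized products of dopamine. Gstm1 had the most reads of the class. Its scaled counts were 417, 297 and 234 in the WT pools and 455, 448 and 431 in Slc6a4-/- pools. The means were 315.9 ± 93.2 and 444.4 ± 12.5 (SD, n = 3), a ratio of 1.41 and a log2 difference of 0.53 (SE 0.22). Without the third WT pool the difference was 0.34. The Slc6a4-/- pools lay close together, with a coefficient of variation of 2.81%, and the WT pools did not, with 29.5%.

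Gstm2 had the largest coefficient of variation in WT among the 8 genes with reads there, 55.5%. Its scaled counts were 49.5, 34.4 and 13.6 in the WT pools and 71.4, 82.4 and 58.1 in the Slc6a4-/- pools. The means of 32.5 ± 18.0 and 70.6 ± 12.1 (SD, n = 3) gave a ratio of 2.17 and a log2 difference of 1.26 (SE 0.47), and without the third WT pool the difference was 0.75. That pool held 13 reads, with a counting error of 27.7% if each read is independent. The error would be larger if both mates of a read pair were counted, which was not established.

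Gstm4 lies at the end of the mu cluster. It had scaled counts of 47.3, 47.9 and 33.5 in the WT pools and 52.9, 84.2 and 83.7 in Slc6a4-/- pools. The means were 42.9 ± 8.14 and 73.6 ± 17.9 (SD, n = 3), a ratio of 1.71 and a log2 difference of 0.75 (SE 0.29). Here the first Slc6a4-/- pool was the low one, 10.3% above the highest WT pool, and the other Slc6a4-/- pools were nearly equal.

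The theta enzyme GSTT1 acts on small halogenated compounds and also has peroxidase activity. Gstt1 had scaled counts of 385, 325 and 298 in WT pools and 471, 526 and 364 in Slc6a4-/- pools. It was the only member whose groups overlapped, as the third Slc6a4-/- pool was lower than the first WT pool. The means were 336.0 ± 44.8 and 453.8 ± 82.3 (SD, n = 3), a ratio of 1.35 and a log2 difference of 0.42 (SE 0.18).

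For Mgst1, the microsomal gene, the scaled counts were 417, 302 and 145 in WT pools and 533, 497 and 438 in Slc6a4-/- pools. The means of 288.0 ± 136.8 and 489.3 ± 48.2 (SD, n = 3) gave a ratio of 1.70 and a log2 difference of 0.89 (SE 0.37). The third WT pool was far below the others. Without it, the difference was 0.46, and without the first WT pool it was 1.22, so that a single pool moved the value by more than 1.5 times.

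Gpx8 had scaled counts of 274, 207 and 204 in WT and 288, 359 and 280 in Slc6a4-/- pools. Its means were 228.6 ± 39.4 and 309.0 ± 43.7 (SD, n = 3), a ratio of 1.35 and a log2 difference of 0.44 (SE 0.18). The lowest Slc6a4-/- pool was 1.99% above the highest WT pool, and the overlap with Cdc20b on the other strand bears on its reads if strand was not used in counting.

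**Figure D2:**
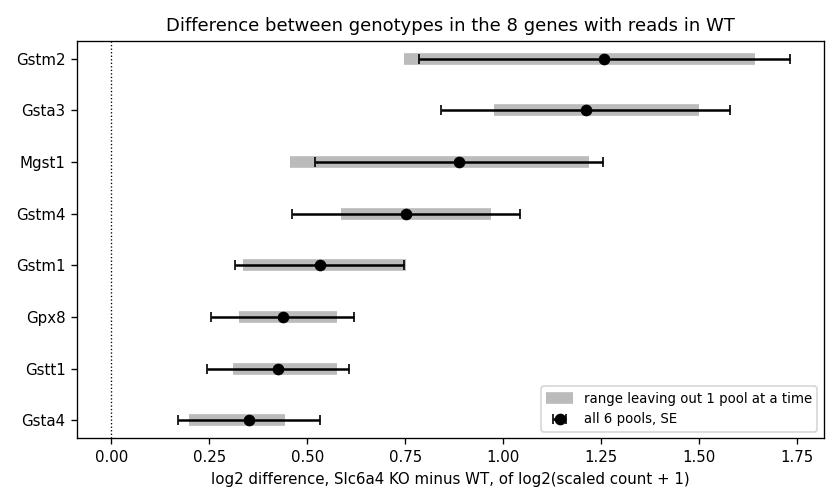
Log2 difference between Slc6a4-/- and WT (x axis, of log2(scaled count + 1)) for the 8 genes with reads in WT, with the SE over all 6 pools (black) and the range when each pool was left out in turn (grey). Every range stays above 0, and the ranges of Mgst1 (0.46 to 1.22) and Gstm2 (0.75 to 1.64) are the widest.

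Summed by class, the log2 differences of the 5 classes ran from 0.42 to 0.89, and differences between classes were not tested. The alpha genes summed to 505.7 ± 75.6 in the WT pools and to 715.2 ± 151 in the Slc6a4-/- pools (scaled counts, SD, n = 3), a log2 difference of 0.49 (SE 0.21). Mu genes summed to 391.3 ± 117 and 588.7 ± 22.8, a log2 difference of 0.63 (SE 0.25). The alpha sum is mostly Gsta4 (0.35), so that it hides the larger value of Gsta3 (1.21). Without the second Slc6a4-/- pool the alpha value was 0.33, and without the third WT pool the mu value was 0.41. Theta, microsomal and peroxidase log2 differences are those of their single genes. The SE of a class sum comes from its pools alone, whereas limma draws the SE of a gene toward the trend over the table. For Mgst1 the SE was 0.46 from its pools alone and 0.37 from limma. All 9 genes together summed to 1750 ± 403 and 2556 ± 316, a ratio of 1.46.

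Compared per exon length, the order of the members was the same in both genotypes. RPKM, the reads per kilobase of exon per M reads of the library, was scaled so that the Slc6a4-/- mean of each gene is the mean the authors deposited, since exon lengths of GENCODE M21 were 2.57 times the length implied by that value for Gsta3 and 1.42 times for Gstm2. Gsta4 was the highest member, at 4.32 ± 0.625 RPKM in WT and 5.53 ± 1.07 in Slc6a4-/- (SD, n = 3), and it was above Gstm1 within each pool although their WT values overlapped between pools. Gstm1 (2.74 and 3.85), Gstt1 (2.66 and 3.59) and Gpx8 (2.63 and 3.56) followed, and neighbours among these 3 overlapped in both genotypes. Mgst1 came next, at 1.72 ± 0.819 in WT, where it overlapped Gpx8, and at 2.93 ± 0.289 in Slc6a4-/-, where it did not.

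Below a clear gap, Gsta3 had 0.377 RPKM in WT and 0.88 in Slc6a4-/-, Gstm2 had 0.331 and 0.72, and Gstm4 had 0.303 and 0.52. These 3 genes could not be ordered beyond the spread of the pools. Gsta1 was the lowest, at 0 in WT and 0.16 in Slc6a4-/-.

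The share of each class in the summed level overlapped between genotypes. The scaling of a pool's own library cancels in such a share, but the weight of each gene rests on the recovered sizes of the Slc6a4-/- libraries. Alpha genes made up 31.4% ± 2.75 of the summed RPKM in WT and 30.0% ± 2.43 in Slc6a4-/- (SD, n = 3), and mu genes 22.1% ± 2.06 and 23.6% ± 2.03. Gstt1 made up 17.9% ± 1.73 and 16.4% ± 1.29, Gpx8 17.6% ± 2.00 and 16.4% ± 0.688, and Mgst1 11.0% ± 3.29 and 13.6% ± 1.46. Of the single genes, 3 of 9 had shares that did not overlap, and nothing is read from this count. For Gsta3 the highest WT share, 2.951%, and the lowest Slc6a4-/- share, 2.954%, were nearly equal. The ratio of its reads between these pools had a counting error of 16.5%. Gsta1 had no read in WT, so that its share could only be higher in Slc6a4-/-. Gsta1 made up 0% in WT and 0.744% ± 0.224 in Slc6a4-/-, Gsta3 2.47% ± 0.544 and 3.98% ± 0.917, and Gstm2 2.08% ± 0.820 and 3.30% ± 0.185, all 3 higher in Slc6a4-/- (SD, n = 3).

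**Figure D3:**
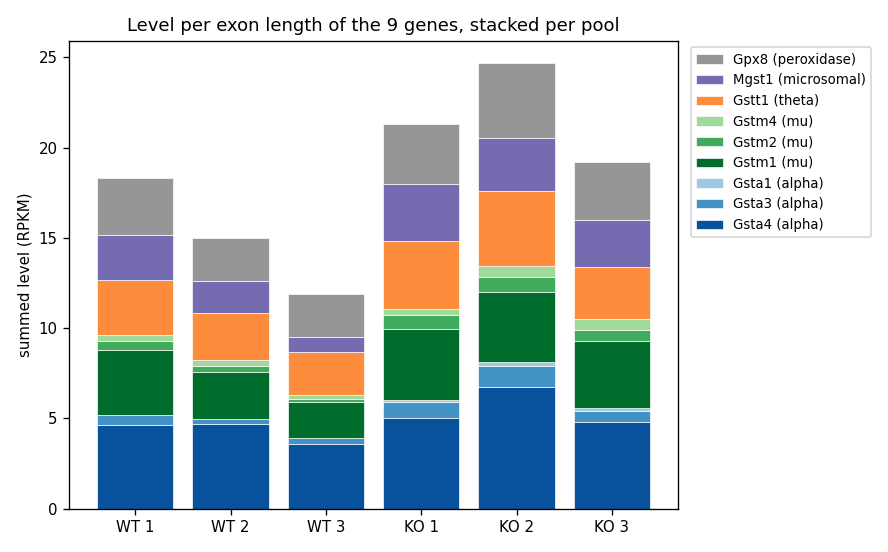
Level of the 9 genes per exon length (RPKM, y axis) stacked for each WT and Slc6a4-/- pool (x axis). Gsta4 is the thickest layer in all 6 pools, and the summed height ran from 11.9 to 18.3 in WT and from 19.2 to 24.7 in Slc6a4-/- pools.

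The order of the pools within a genotype did not enter the difference between genotypes, although the spread between pools entered the authors' p-value. Within a genotype, the members tended to be high or low in the same pools. To a lesser extent so did other genes of the table, with a median r of 0.37 to the mean deviations of the members. Among the 8 genes with reads in WT, the first WT pool was above the WT mean in 8 of 8 and the third WT pool in 0 of 8. The third WT pool was the lowest of the 3 for 7 of the 8 genes. In the Slc6a4-/- pools, the second was the highest for 6 of 9 genes and the third was the lowest for 7 of 9.

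The mean deviation of the 8 genes spanned more in WT than in Slc6a4-/- pools. It was 0.40, 0.02 and -0.42 in the 3 WT pools and -0.04, 0.22 and -0.18 in the Slc6a4-/- pools, on the log2 scale and relative to the genotype mean. Gstm2 and Mgst1 moved the most, with deviations of -1.02 and -0.86 in the third WT pool. Gstm4 followed the others least, with an r of 0.43 over the 6 pools between its deviations and the mean of the other members, and Gstm2 followed them most, with an r of 0.93.

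**Figure D4:**
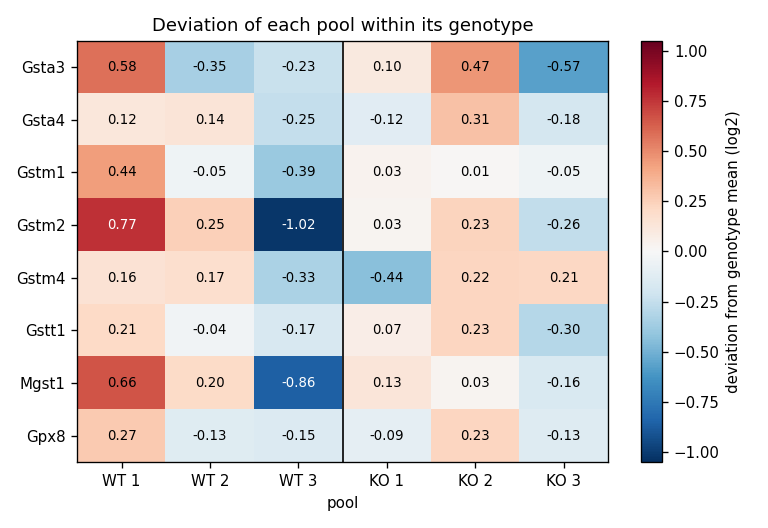
Deviation of log2(scaled count + 1) from the mean of its own genotype for 8 genes (lines) in the 6 pools (columns), red above and blue below the mean. The column of the first WT pool is red for all 8 genes and that of the third WT pool blue for all 8.

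Of 566 genes outside the 9 with a mean of at least 50 scaled counts, the 5 whose deviations were most like the members' mean profile over the 6 pools were Ces1d (r = 0.995), Tprkb (0.989), Tns1 (0.977), Folr1 (0.976) and Pmel (0.975). Ces1d encodes a carboxylesterase, Folr1 a folate receptor, Pmel the fibril protein of melanosomes, and Tns1 a protein of focal adhesions. An r over 0.9 was reached by 58 of the 566 genes (10.2%), and the median was 0.37. These correlations are descriptive, over 6 pools that share the tissue dissection and the library of all genes.

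Over the WT pools, the ciliary, pigment cell and fibroblast marker lists, of tissues next to the neural retina, stood in the same order as the 9 genes. Of these lists, only the pigment cell list also did so over the Slc6a4-/- pools. Over the WT pools, the order was not particular to these tissues, as the surface epithelium and lens list shared it. The sum of the Müller glia and astrocyte list shared the order over the pools of both genotypes. That list held only Dkk3 and Gfap, however, and its sum was mostly Dkk3. Gfap alone did not keep the order over the WT pools, with scaled counts of 2153, 1559 and 1787. In the Slc6a4-/- pools the sums of the list were 29566, 33094 and 29367, so that the lower sums were nearly equal. The peripheral retina borders on the ciliary epithelium and lies against the pigment epithelium, which are rich in detoxification enzymes. All 16 of 16 listed ciliary epithelium genes were in the table, each with a higher mean in Slc6a4-/-, and their summed scaled counts were 21472, 13143 and 7557 in the WT pools and 28136, 25444 and 20035 in the Slc6a4-/- pools. Thus the first WT pool had more of them than the third Slc6a4-/- pool. The marker lists were chosen with earlier results of these data known, and 56.6% of the genes in the table were higher in Slc6a4-/-. Nothing is therefore read from how many genes of a list were present or higher.

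Of 15 pigment cell genes, 7 were in the table and all 7 had a higher mean in Slc6a4-/-, with sums of 2586, 1949 and 1082 in WT and 3847, 4108 and 2369 in Slc6a4-/- pools. Tyrp1, Dct and Pmel, defining genes of pigment cells, were read in every pool, and Rpe65 was not analysed here. Of 16 fibroblast and matrix genes, 12 were in the table and 11 were higher, while Col1a1, a chain of type I collagen, was lower without overlap (202.0 ± 103 against 80.9 ± 23.8 scaled counts, SD, n = 3). The sums of the list were 16263, 10092 and 6048 in WT and 17648, 14969 and 15466 in Slc6a4-/- pools. The median log2 difference was 0.88 for the ciliary list, 0.99 for the pigment list and 0.88 for the fibroblast list, compared with 0.75 for the 9 genes. Whether the ciliary, pigment and fibroblast transcripts play a part in the differences of the 9 genes was not tested.

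**Figure D5:**
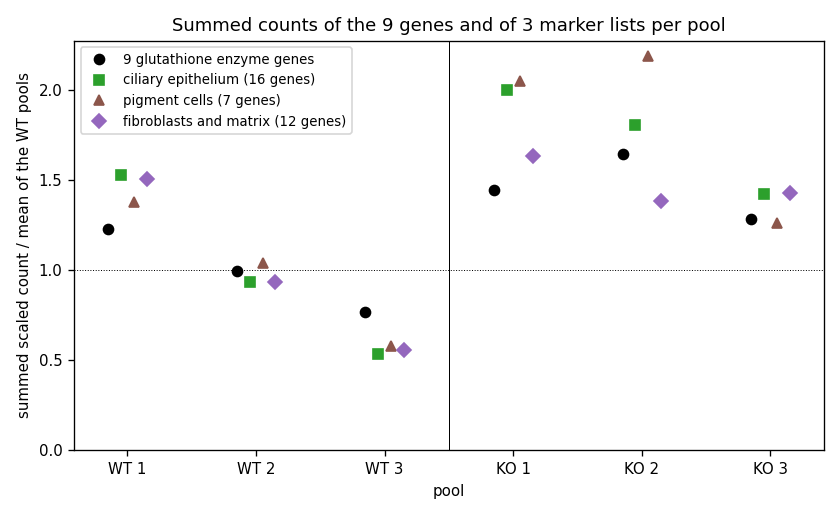
Summed scaled counts of the 9 genes and of the ciliary epithelium, pigment cell and fibroblast markers in each pool, divided by the mean of the 3 WT pools (y axis). All 4 sums are highest in the first and lowest in the third WT pool, where the 9 genes span the narrowest range. In the Slc6a4-/- pools the 9 genes and the pigment markers are highest in the second pool, and the ciliary and fibroblast markers in the first.

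Over the whole table, 56.6% of the genes were higher in Slc6a4-/- and 35.1% were higher without overlap. Of 15 myeloid genes, 12 were in the table and 11 of them were higher in Slc6a4-/- retina, 7 without overlap, with a median log2 difference of 0.93. Their sums were 782, 841 and 782 in WT and 1196, 914 and 891 in Slc6a4-/- pools, and Hcls1, the only lower gene (-0.37), made up much of them with 335, 513 and 499 in the WT pools. The part of myeloid transcripts in the differences of the 9 genes was not tested either. Of 14 Müller glia and astrocyte genes only Dkk3 (log2 difference 0.30) and Gfap (-0.39) were in the table. Their summed scaled counts, mostly of Dkk3, were 28584, 25039 and 23474 in the WT pools and 29566, 33094 and 29367 in the Slc6a4-/- pools. Within genotypes, the deviations of Dkk3 correlated with the members' mean profile at r = 0.97, and those of Gfap at 0.64. The neural retina was plainly present, as 4 of 11 photoreceptor genes were in the table with summed scaled counts of 30277 to 43731 over the 6 pools, and 1 of 12 ganglion cell genes, Nefl, had 8993 to 12943. Gland genes (10 of 14 in the table) were lower in 8 cases, and surface epithelium and lens genes (6 of 14) were higher in 4.

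Some listed genes for other steps of glutathione metabolism were in the table. The pathway lists, like the marker lists, were written with earlier results of these data known. Nothing is therefore read from how many of their genes were present or higher. Of 11 genes for the synthesis of glutathione and the supply of its amino acids, only 2 were present. Slc7a11, the cystine importer, had scaled counts of 1586, 1339 and 770 in WT and 2345, 1789 and 1484 in Slc6a4-/- pools, a log2 difference of 0.64 (SE 0.29) with overlapping groups. Slc1a4, a carrier of serine and other neutral amino acids, was lower in Slc6a4-/- without overlap (-0.35, SE 0.15). The rate-limiting synthesis genes Gclc and Gclm were not in the table.

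Chac1, which degrades glutathione, was the only 1 of 14 breakdown genes in the table. Its scaled counts were 112, 148 and 196 in WT and 57.3, 121 and 141 in Slc6a4-/- pools, a log2 difference of -0.57 (SE 0.38), and the groups overlapped. Of 25 glutathione and thioredoxin redox genes, 3 were present, all with a higher mean. They were Prdx6 (0.24), a peroxiredoxin that reduces phospholipid hydroperoxides, Txn2 (0.34), the mitochondrial thioredoxin, and Nxn (0.32), a thioredoxin-like protein. Only Txn2 had groups without overlap.

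Conjugate processing was represented by 5 of 16 genes, all with a higher mean in Slc6a4-/-. All but Kyat1 belong to the Nat8 family, whose best-known member completes mercapturic acids by acetylation. Nat8f4 had a mean of 396.1 ± 54.4 in WT pools and 526.2 ± 13.0 in Slc6a4-/- pools (scaled counts, SD, n = 3), a log2 difference of 0.42 without overlap. Nat8 (1.11), Nat8f5 (1.10) and Nat8f6 (2.29) had low counts, with means of at most 13.5 in WT, and Kyat1, a cysteine conjugate lyase, differed by 0.34.

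Of 47 listed genes of other detoxification enzymes, 13 were in the table, 11 higher and 2 lower in Slc6a4-/-. Aldh1a1, a retinaldehyde dehydrogenase that is also on the ciliary list, had 2210 ± 816 and 3847 ± 1352 scaled counts, a log2 difference of 0.80 with overlap. Aox1, an aldehyde oxidase, had 86.5 ± 5.63 and 138.2 ± 13.0 (SD, n = 3) without overlap, a log2 difference of 0.67. Cyp4f14 (-0.60) and Cyp2g1 (-1.26), both cytochrome P450 genes, were the lower ones.

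Among 24 NRF2 targets outside these families, 5 were in the table and all were higher, namely Slc7a11, Prdx6, Ephx1 (0.44), Aox1 and Ces1d (1.33). Only Aox1 had groups without overlap. The widely used NRF2 reporters Nqo1, Hmox1, Gclm and Srxn1 were not in the table. Over all these lists, 24 genes other than the 9 were present, of which 20 were higher on average in Slc6a4-/- and the other 4 were lower, in a table where 56.6% of the genes were higher.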

How the data were processed

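The authors prepared stranded libraries from rRNA-depleted total RNA and sequenced 75-base read pairs. Alignment to GRCm38 and counting per gene were done by the authors in CLC Genomics Workbench 20.0. The deposited table holds raw whole-number counts per gene for the 6 samples (with commas as digit separators), and, as RPKM, the authors' mean for whichever genotype was higher. It also holds the authors' fold changes, p-values, FDR and Bonferroni values, which were not used. All sample columns were used and 0 were left out. Because the counts do not carry library totals, library sizes were recovered from counts, RPKM and GENCODE M21 exon lengths, in genes with RPKM over 2. Only genes within 0.6% of the fit were kept, 49 of 88 for WT and 47 of 123 for Slc6a4-/-. The SE of 0.15% to 0.26% is over the kept genes, so that this choice itself makes it small. On simulated data with some exon lengths made too long, the largest error was 0.601%. Log2(scaled count + 1) was fitted with limma 3.58.1 (R 4.3.3, trended variance, Benjamini-Hochberg adjustment over the 701 genes), whose script recovered known differences in simulated counts. No count model was used, because the values, whole numbers printed with commas and decimals, did not pass a check for plain counts, and limma on log2 values was used instead.

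The members, the pathway and marker lists and the motif were chosen with earlier results of these data known. Named genes were the 9 members, Slc6a4, list genes in the table and the 5 genes with the highest r to the members' mean profile within genotypes. The libraries held 75.3 M to 94.0 M reads. Alternatives were other scalings, pseudocounts of 0.5 and 5, a minimum mean of 10 scaled counts, no variance trend, a replicate block, and leaving out each pool.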

Additional observations from a re-analysis of the deposited data

How the results depend on the processing

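Each of the 9 genes and each class kept a higher mean in Slc6a4-/- under every alternative run, and the number of genes without overlap ran from 7 to 9 (7 with median-of-ratios scaling, where Gsta4 joined Gstt1 in overlapping). The median log2 difference of the 9 genes, 0.75 with all pools, ran from 0.46 to 0.84 when each pool was left out, and the lowest value came without the third WT pool. The fitted log2 difference of Gsta1, 3.60, was 4.54 with a pseudocount of 0.5 and 1.69 with 5, and is no bound. Without library scaling, the median over all 701 genes shifted by 0.18.

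Counts of limma calls over the table, 5 higher and 3 lower (319 genes at an unadjusted p under 0.05), were unstable. They were 106 higher and 8 lower without library scaling, and 28 and 13 without the variance trend. Leaving out each pool gave 0 to 132 higher and 3 to 25 lower, with 132 and 25 (5 of the 9 genes called) without the first WT pool, 0 higher without the second WT pool, 2 higher without the second and 3 higher and 14 lower without the third Slc6a4-/- pool. The cause was not tested. Whether the replicate numbers pair the samples was not settled. Deviations of same-numbered pools correlated at 0.25, -0.16 and 0.08, but differently numbered pools were not compared, so these values cannot decide it. The fit with the replicate block gave 9 higher and 6 lower, with none of the 9 genes called and the median difference at 0.75. The number of the 9 genes called was also 0 with a minimum mean of 10 and without the second or the third pool of either genotype. Depth limits the low counts of Gsta1 and the non-overlap of the 7 genes with reads in WT, whose gaps lay below counting error.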
